A study of Homo sapiens with 4 samples.

Results

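HOXA9, HOXA10, HOXA11 and HOXA13 are the posterior genes of the HOXA cluster. They were taken as a set of 4 genes among the 20098 protein-coding genes of GENCODE on hg19, because they mark regional identity along the Mullerian duct. The study profiled H3K27ac, a histone acetylation mark found at active promoters and enhancers, by ChIP-seq in 4 established human cancer lines: OVCAR-3 and SKOV-3 from ovary, DU-145 from prostate and COLO-205 from colon. The labels give no treatment, a medium of its own with serum for each line and the same antibody (ab4729) for all. Each line has 1 library, which allows neither a replicate error nor a test between lines. For each of the 4 peak lists, peaks within 1 kb of a transcript start of these genes were taken, together with all peaks in the stretch from the end of HOXA9 to the start of HOXA13.

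HOX genes encode homeodomain transcription factors that give cells their position along the body axis, and within a cluster their order on the chromosome follows the order of their domains along the body. In the female reproductive tract the Mullerian duct is patterned by the posterior HOXA genes. HOXA9 is associated with the oviduct, HOXA10 with the uterus, HOXA11 with the lower uterus and cervix, and HOXA13 with the upper vagina. The same genes also act outside this duct, for example HOXA13 in the hindgut and in the urogenital sinus from which the prostate forms.

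In hg19 all 4 genes lie on the minus strand of chromosome 7, so that HOXA13 is the gene nearest to the end of the cluster with the highest coordinates. HOXA9 (ENSG00000078399.19_9) spans chr7:27202057-27214799, HOXA10 (ENSG00000253293.6_12) chr7:27210224-27219880, HOXA11 (ENSG00000005073.6_8) chr7:27220776-27224851 and HOXA13 (ENSG00000106031.9_14) chr7:27233122-27239710. The canonical transcript, which is the 1 that the annotation chooses for a gene, starts at 27205156 in HOXA9, at 27213939 in HOXA10, at 27224851 in HOXA11 and at 27239710 in HOXA13. HOXA9 has 7 distinct transcript starts, HOXA10 has 4, HOXA11 has 2 and HOXA13 has 2. The HOXA9 and HOXA10 annotations overlap, and 1 start of HOXA9, at 27214799, lies beyond the canonical HOXA10 start. A peak at the HOXA10 promoter is therefore also counted for HOXA9 when every start is used, and results at the canonical starts are given beside those at any start.

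The sequences under the COLO-205 summits show the kind of DNA that carried the mark. For each gene the 151 bases centred on the summit of the strongest COLO-205 peak at the canonical start are printed on the gene's strand, with CpG dinucleotides in capitals, from chr7:27205886-27206036 (HOXA9, 805 bp upstream of the start, between the canonical transcripts), chr7:27212869-27213019 (HOXA10, an intron 995 bp downstream of the start), chr7:27224217-27224367 (HOXA11, coding exon, 559 bp downstream) and chr7:27239158-27239308 (HOXA13, coding exon, 477 bp downstream).
HOXA9: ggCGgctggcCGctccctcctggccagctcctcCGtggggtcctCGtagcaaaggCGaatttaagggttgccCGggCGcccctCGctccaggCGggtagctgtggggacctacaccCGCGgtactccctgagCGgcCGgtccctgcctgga
HOXA10: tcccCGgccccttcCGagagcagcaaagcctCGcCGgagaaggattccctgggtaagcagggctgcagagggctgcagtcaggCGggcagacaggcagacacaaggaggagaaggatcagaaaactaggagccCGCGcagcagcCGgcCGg
HOXA11: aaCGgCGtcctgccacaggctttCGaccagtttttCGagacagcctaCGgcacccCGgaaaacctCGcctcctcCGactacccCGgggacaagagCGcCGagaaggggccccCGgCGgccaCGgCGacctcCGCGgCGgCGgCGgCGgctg
HOXA13: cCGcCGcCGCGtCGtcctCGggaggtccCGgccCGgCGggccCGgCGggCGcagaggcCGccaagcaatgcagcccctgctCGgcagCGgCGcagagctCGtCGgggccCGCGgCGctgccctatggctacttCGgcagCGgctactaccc
These windows hold 13, 9, 21 and 23 CpGs at 70.9%, 65.6%, 71.5% and 78.1% GC, in the order printed. The median window of this size at the 85315 COLO-205 summits holds 5 CpGs at 60.3% GC, so all 4 windows are richer in CpG than the median.

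The only SKOV-3 peak in the stretch is shown whole because it is the sole mark of the 4 genes in that list. It covers 253 bases of HOXA10, chr7:27213095-27213347, and its summit lies in the coding exon 739 bp downstream of the canonical start. The capitals mark the 21 bases around the summit.
HOXA10 peak: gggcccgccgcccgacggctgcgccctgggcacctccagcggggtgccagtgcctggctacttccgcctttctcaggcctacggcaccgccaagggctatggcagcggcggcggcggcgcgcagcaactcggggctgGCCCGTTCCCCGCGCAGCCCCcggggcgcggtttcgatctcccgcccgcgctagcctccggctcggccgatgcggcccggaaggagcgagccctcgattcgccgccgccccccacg
This sequence is 77.5% GC with 37 CpGs. All 253 bases are also under peaks of COLO-205 and of DU-145, and none is under a peak of OVCAR-3.

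COLO-205 was the line with the mark at every member, although with lists of equal length, the 14001 strongest peaks of each, it had 2 of the 4 genes at any start and so had DU-145. With a −log10 q of at least 10 it lost HOXA13 and had 3, as did DU-145. In the canonical windows, 1 kb either side of the start, COLO-205 had a peak at all 4 genes, DU-145 at HOXA10 and HOXA11, SKOV-3 at HOXA10 and OVCAR-3 at none. When any annotated start was used, the counts were 4 genes in COLO-205, 3 in DU-145 and 1 in each ovarian line, with 14, 9, 3 (OVCAR-3) and 3 (SKOV-3) of the 15 distinct starts marked. OVCAR-3 thus gained HOXA9 only through starts away from the canonical start. As markers of Mullerian identity the 4 genes did not follow the labelled tissue in OVCAR-3, which marked fewer of them than the colon line. SKOV-3 had few peaks on the whole chromosome, as given in the next paragraph. As background, a peak lay within 1 kb of any start in 60.6% of the protein-coding genes in OVCAR-3, in DU-145 in 60%, in COLO-205 in 51.3% and in SKOV-3 in 31.7%. At the 19819 canonical starts these shares were 57.5%, 56.9%, 45.3% and 29.5%, in the same order, and the exact Clopper-Pearson 95% intervals were within 1 percentage point of each share. Read against these, 4 of 4 in COLO-205 and 0 of 4 in OVCAR-3 stand on opposite sides of their backgrounds, whereas DU-145 is close to its own.

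Chromosome 7 itself was poorly covered in SKOV-3, which bears on every SKOV-3 value at this locus. Its list holds 65 peaks on chromosome 7, where DU-145 has 2586, COLO-205 1859 and OVCAR-3 1717. A peak lay at 4.56% of the 921 canonical starts of chromosome 7 in SKOV-3, the lowest share of 23 chromosomes, the others being between 13.8% and 45.5%. The corresponding shares on chromosome 7 were 33% in COLO-205, 51.1% in OVCAR-3 and 54.4% in DU-145. None of the 4 genes that flank the cluster (SKAP2, EVX1, HIBADH and TAX1BP1) had a peak in SKOV-3, and 3 of 4 had one in each other line, EVX1 being the exception in all. The source of the SKOV-3 shortfall was not tested, and an unmarked gene there cannot be told apart from a gene on a chromosome with few called peaks.

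**Figure D1:**
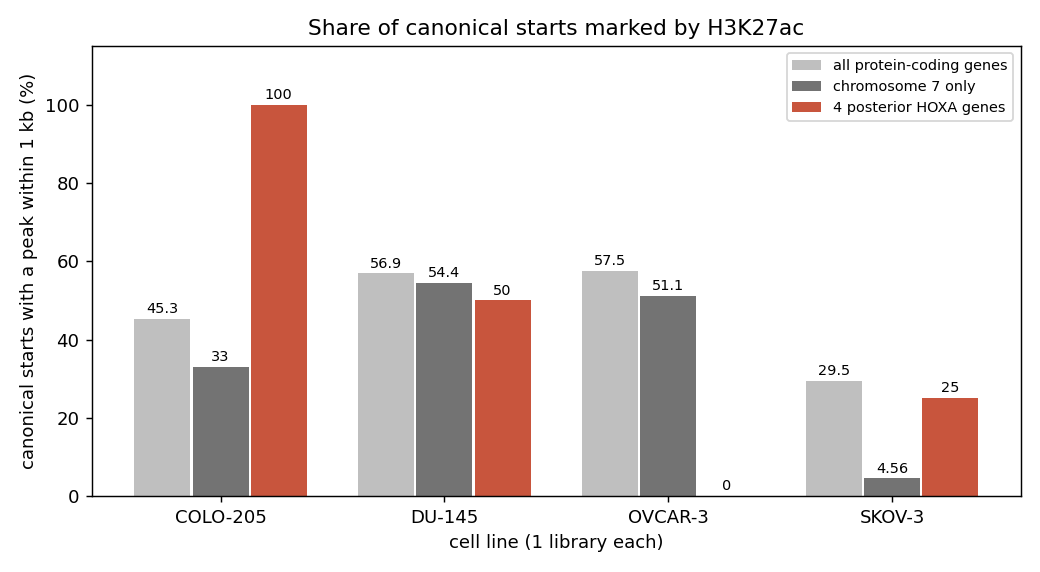
Percentage of canonical starts with an H3K27ac peak within 1 kb (vertical axis) in each line, with 1 library per line, for all protein-coding genes (light bars), those of chromosome 7 (dark bars) and the 4 posterior HOXA genes (red bars). The red bar reaches 100% in COLO-205 and 0% in OVCAR-3, and the chromosome 7 bar of SKOV-3 is at 4.56%.

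The values at each gene are the fold enrichment of the strongest peak, which is the authors' ratio of the tag pileup at its summit to the local background, with 1 added to each, and the pileup itself, recovered from that ratio and the p-value of the peak. Intervals are exact Poisson 95% intervals of the pileup with the background held fixed, and they cover counting error only. Fold enrichments are not scaled between libraries. The rank among all marked genes of the same list is therefore given with them, and pileups are also given per 1000000 tags, the libraries being computed to hold 36000000 tags (DU-145), 34200000 (OVCAR-3), 29800000 (COLO-205) and 22400000 (SKOV-3).

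HOXA10, the uterine patterning gene, was marked at the canonical start in more lines than the other members, and at any start in 3 lines, as was HOXA9. Its SKOV-3 call was lost within 500 bp of a start, at the 5′ end of the gene and with a −log10 q of at least 10. Without that call HOXA10 and HOXA11 have the same lines at the canonical start. At its canonical start the fold enrichment was 5.71 in COLO-205 (4.30 to 7.43, 53 tags), 6.20 in DU-145 (4.95 to 7.68, 82 tags) and 4.26 in SKOV-3 (2.88 to 6.09, 28 tags). OVCAR-3 had no peak there, its nearest peak lying 4163 bp away. The 3 intervals overlap. Among the genes marked in the same list the HOXA10 peak stood at percentile 79.6 in COLO-205, 80.5 in DU-145 and 22.7 in SKOV-3. It was thus in the upper part of the COLO-205 and DU-145 lists and in the lower part of the SKOV-3 list. The SKOV-3 peaks of chromosome 7 had a median fold of 4.54, against 5.35 over its whole list. The 4.26 at HOXA10 is not far from the median of its chromosome.

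Per 1000000 tags the HOXA10 pileup was 1.78 in COLO-205, 2.27 in DU-145 and 1.25 in SKOV-3. The log2 ratio of DU-145 over SKOV-3 was 0.86 (95% interval 0.23 to 1.54), and its interval lies above 0. The ratio of COLO-205 over DU-145 was -0.36 (-0.88 to 0.16) and that of COLO-205 over SKOV-3 was 0.51 (-0.18 to 1.22), and both intervals include 0. Other scalings moved both ratios. In undivided tags COLO-205 over DU-145 was -0.63 (-1.16 to -0.11) and COLO-205 over SKOV-3 was 0.92 (0.23 to 1.64). Relative to the median promoter pileup of each list they were 0.03 (-0.50 to 0.54) and 0.85 (0.16 to 1.56). The first ratio thus changed sign and the second stayed above 0, with an interval that included 0 only per 1000000 tags. The peaks also differed in extent, covering 65.6% of the canonical window in COLO-205, 45.9% in DU-145 and 12.6% in SKOV-3. The COLO-205 peak was 1599 bp wide and the DU-145 peak 1794 bp, each the widest of its line in the stretch.

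HOXA11, the neighbouring gene associated with the lower uterus and cervix, was marked in COLO-205 and DU-145. Its canonical fold enrichment was 3.81 in COLO-205 (2.76 to 5.13, 41 tags) and 4.77 in DU-145 (3.52 to 6.33, 46 tags), again with overlapping intervals. These are percentile 30.8 of the COLO-205 list and 52.5 of the DU-145 list, so the HOXA11 peak ranked below that of HOXA10 in both lines. Per 1000000 tags the pileups were 1.38 and 1.28. The nearest peak was 15075 bp away in OVCAR-3 and 11504 bp away in SKOV-3. HOXA11-AS, the antisense non-coding RNA transcribed from the same promoter region, was marked in the same lines, with folds of 4.61 and 4.77. Peak calls carry no strand, so the gene and its antisense partner cannot be told apart.

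HOXA9, associated with the oviduct, had a canonical peak in COLO-205 alone. The strongest of its 2 peaks there had a fold enrichment of 5.42 (4.06 to 7.09, 51 tags) at percentile 75.1, and the pair covered 45.1% of the canonical window. In the other lines the nearest peak was 7939 bp away in SKOV-3 and 3963 bp in OVCAR-3, with DU-145 at 3746 bp. In DU-145 and OVCAR-3 the gene was counted at any start through the starts at 27209063, 27209356 and 27210117, which belong to transcripts with no coding sequence defined. The folds at these starts were 4.38 in DU-145 and 4.60 in OVCAR-3. DU-145 was also counted at the start at 27214799, where the peak is that of HOXA10.

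HOXA13, the last gene of the cluster, was marked in COLO-205 alone. Its 2 canonical peaks there had a highest fold enrichment of 4.10 (2.84 to 5.73, 32 tags) at percentile 41.0 and together covered 28.5% of the window. It was the gene farthest from any peak in the other lines, with SKOV-3 at 26363 bp, OVCAR-3 at 29934 bp and DU-145 at 15486 bp. HOTTIP, a long non-coding RNA that starts next to HOXA13 and is known to act on the posterior HOXA genes, was counted through the same peak, with a fold of 4.10 in COLO-205 at a start other than its canonical one and no peak in the other lines. Within COLO-205 the canonical folds ran from 3.81 at HOXA11 and 4.10 at HOXA13 to 5.42 at HOXA9 and 5.71 at HOXA10, and the intervals of all 4 overlap, so this order is not resolved by the counts.

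**Figure D2:**
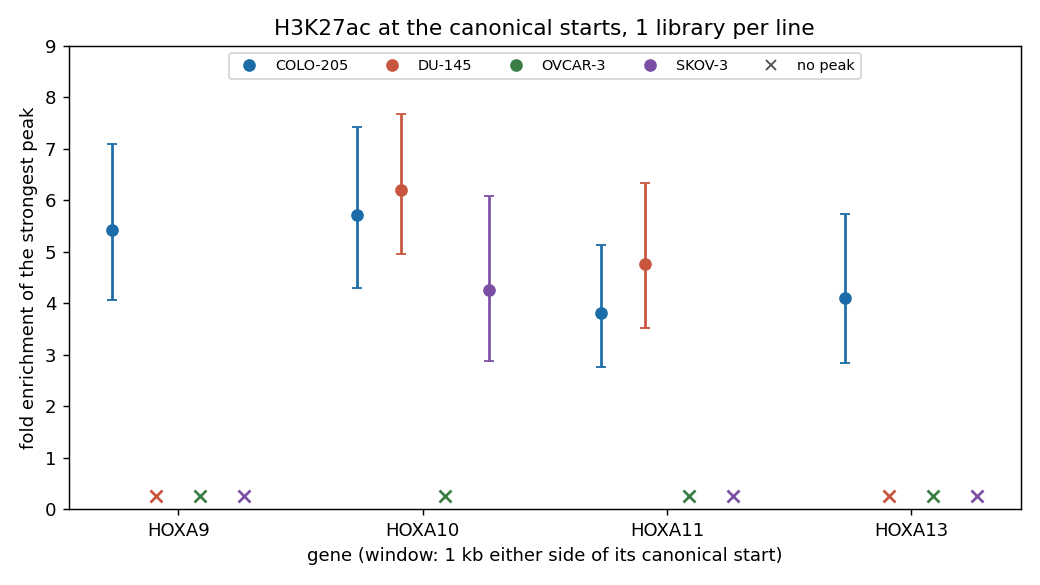
Fold enrichment of the strongest H3K27ac peak within 1 kb of the canonical start (vertical axis) for each gene and line, with bars for the 95% Poisson interval of the pileup and crosses for no peak. COLO-205 has a point at all 4 genes, between 3.81 and 5.71, and OVCAR-3 has only crosses.

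Each pattern over the 4 lines was then counted among all canonical starts. The pattern of HOXA9 and HOXA13, with a peak in COLO-205 alone, was shared by 1114 of 19819 genes (5.62%). That of HOXA11, with peaks in COLO-205 and DU-145, was found at 387 genes (1.95%), and that of HOXA10, with a peak in every line but OVCAR-3, at 101 genes (0.51%). Among the 38 HOX genes compared, HOXB5, HOXB6 and HOXB9 had the pattern of HOXA10, HOXC10 that of HOXA11, and HOXC5, HOXD10 and HOXD12 that of HOXA9 and HOXA13. Likeness here is only the same set of lines with a peak, over 4 lines. No peak in any line was found at 28.7% of canonical starts, and none of the 4 members was among these.

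In the stretch of 37654 bp from HOXA9 to HOXA13 the lines differed in the number of peaks. COLO-205 had 13 peaks over 6187 bp (16.4% of the stretch), DU-145 3 over 3552 bp (9.43%), OVCAR-3 1 over 658 bp (1.75%) and SKOV-3 1 over 253 bp (0.672%). With the 14001 strongest peaks of each list COLO-205 kept 4 peaks over 3158 bp and DU-145 2 over 2900 bp. Over the genome the lists cover 1.13%, 1.47%, 1.33% and 0.200% in the same order, so the stretch was covered above the genome's share in all 4 lines, least so in OVCAR-3. The highest fold in the stretch was 6.20 in DU-145 and 5.71 in COLO-205, and the sole peaks of the ovarian lines had 4.60 (OVCAR-3) and 4.26 (SKOV-3). The 13 COLO-205 peaks were narrow, with a median width of 341 bp, and their pileups ran from 29 to 53 tags, where DU-145 had pileups from 46 to 82 tags in 3 peaks of 652 to 1794 bp.

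Most peaks of the stretch lay within 1 kb of some annotated start of a member, with 11 of 13 peaks in COLO-205 and all 5 peaks of the other 3 lists. The share of the stretch inside such windows was not set beside these counts. The canonical windows held fewer: in COLO-205 2 peaks at HOXA9, 1 at HOXA10, 1 at HOXA11 and 2 at HOXA13. DU-145 had 1 at HOXA10 and 1 at HOXA11, SKOV-3 had 1 at HOXA10 and OVCAR-3 had none. The lists overlapped in places: 5 of the 13 COLO-205 peaks touched a peak of another line, and each of the DU-145, OVCAR-3 and SKOV-3 peaks did so. In bases, 2343 were shared by COLO-205 and DU-145, which is 37.9% of the COLO-205 total and 66.0% of the DU-145 total. The 8 COLO-205 peaks found in no other line included those at the canonical starts of HOXA9 and HOXA13. No base was shared by the ovarian lines OVCAR-3 and SKOV-3, which have 1 peak each there. The share of all peaks of a list that touch another list was not set beside these counts. They therefore describe this stretch alone.

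**Figure D3:**
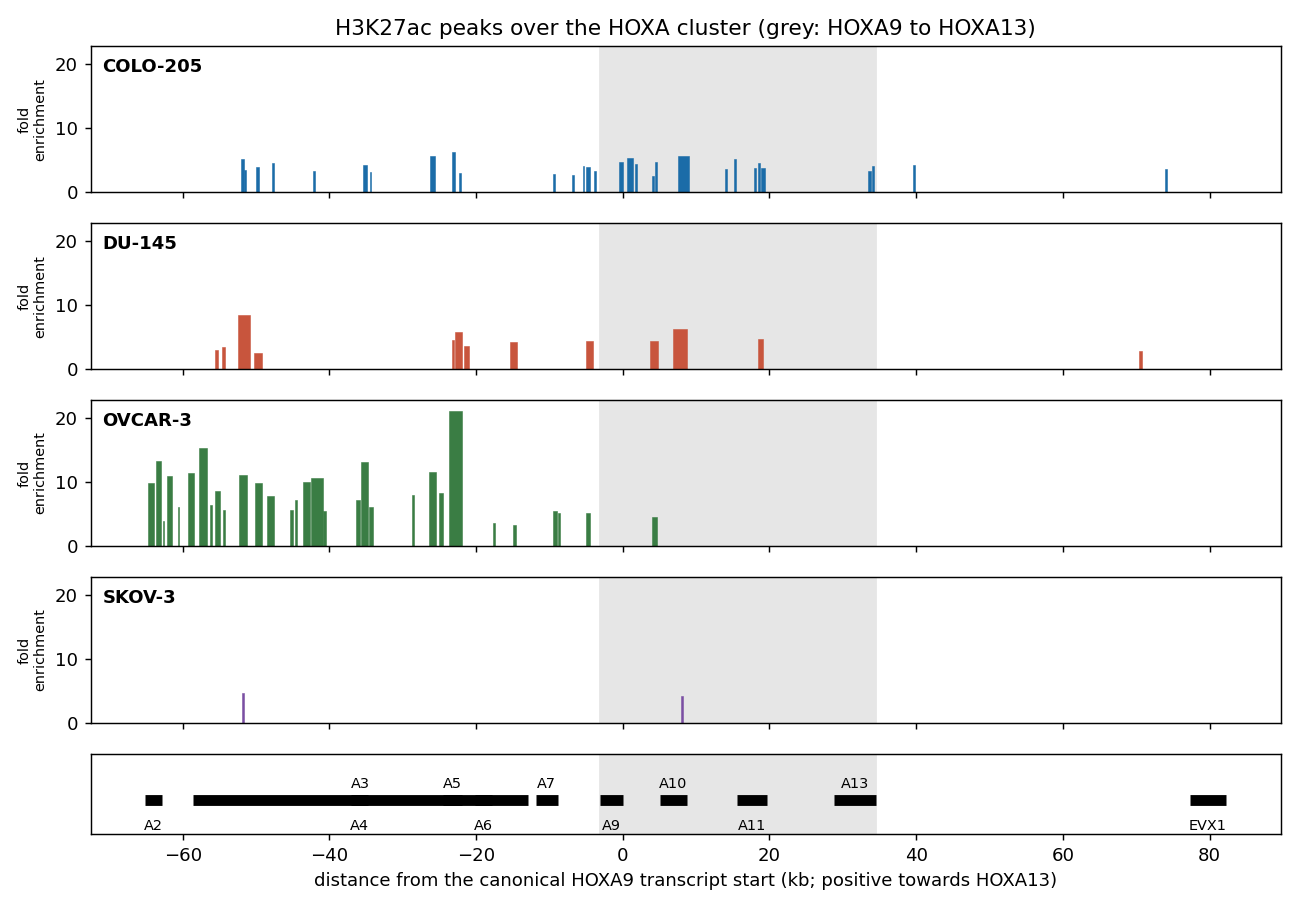
H3K27ac peaks over the HOXA cluster in the 4 lines, with the distance from the canonical HOXA9 start in kb on the horizontal axis and the fold enrichment of each peak as bar height, gene positions at the bottom and the HOXA9 to HOXA13 stretch in grey. COLO-205 peaks run through the grey stretch, and the OVCAR-3 peaks, up to 21.1, lie almost all to its left, over HOXA2 to HOXA7.

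The single OVCAR-3 peak of the stretch, chr7:27209119-27209776, had a fold of 4.60, a pileup of 40 tags and a −log10 q of 13.6. It lies between the canonical transcripts of HOXA9 and HOXA10, at the non-coding RNA HOXA10-AS. It also overlaps the microRNA gene MIR196B (chr7:27209099-27209183, minus strand). The same place was marked in COLO-205 and DU-145, and 587 of the 658 OVCAR-3 bases (89.2%) are shared with COLO-205 and all 658 with DU-145. HOXA10-AS had canonical folds of 4.69 in COLO-205, 4.38 in DU-145 and 4.60 in OVCAR-3, and no peak in SKOV-3. This was the only site of the stretch marked in the first 3 lines together. MicroRNAs of the miR-196 family target HOX transcripts, and the mature sequence of miR-196b is shown beside that of miR-196a, which derives from the HOXB and HOXC clusters, with the seed (bases 2 to 8) in capitals.
hsa-miR-196b-5p: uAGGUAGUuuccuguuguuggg
hsa-miR-196a-5p: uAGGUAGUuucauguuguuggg
Both have 22 bases and the seed AGGUAGU, and they differ at 1 base outside it. The peak overlaps the gene of miR-196b, and the level of the microRNA was not measured.

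Beyond the stretch the mark ended at different distances. After the last peak of the stretch, the next peak towards EVX1 lay 5321 bp away in COLO-205, and the gap was 51248 bp in DU-145, and 476618 and 2815324 bp in the ovarian lines OVCAR-3 and SKOV-3. Between HOXA13 and EVX1, which encodes a homeobox factor, COLO-205 had 2 peaks, DU-145 had 1, and OVCAR-3 and SKOV-3 had 0. On the other side, between HOXA7 and HOXA9, COLO-205 had 4 peaks, OVCAR-3 1, DU-145 1 and SKOV-3 0. In OVCAR-3 the mark thus ran up to HOXA10-AS and was not called again for 476618 bp.

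The anterior HOXA genes from HOXA2 to HOXA7 showed another order of the lines. OVCAR-3 had 29 peaks over 19389 bp there (33.7% of 57583 bp), DU-145 had 8 (11.1%), COLO-205 had 11 (7.11%) and SKOV-3 had 1 (0.445%). At canonical starts 5 of these 6 genes were marked in OVCAR-3, 3 in COLO-205, 1 in DU-145 and 0 in SKOV-3. The OVCAR-3 folds were 21.1 at HOXA5, 13.2 at HOXA2 and HOXA4, 5.43 at HOXA7 and 3.62 at HOXA6, and HOXA3 had no peak at its canonical start in any line. In COLO-205 the anterior folds were at most 4.30 at canonical starts, below those of HOXA9 and HOXA10, but at any start HOXA5 had 6.31, above the 5.71 of HOXA10. OVCAR-3 and COLO-205 differed within the same cluster: 5 of 6 anterior and 0 of 4 posterior genes were marked in OVCAR-3, and 3 of 6 anterior and 4 of 4 posterior genes in COLO-205. With so few genes, the anterior counts of both lines are near their shares of all canonical starts (57.5% and 45.3%).

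**Figure D4:**
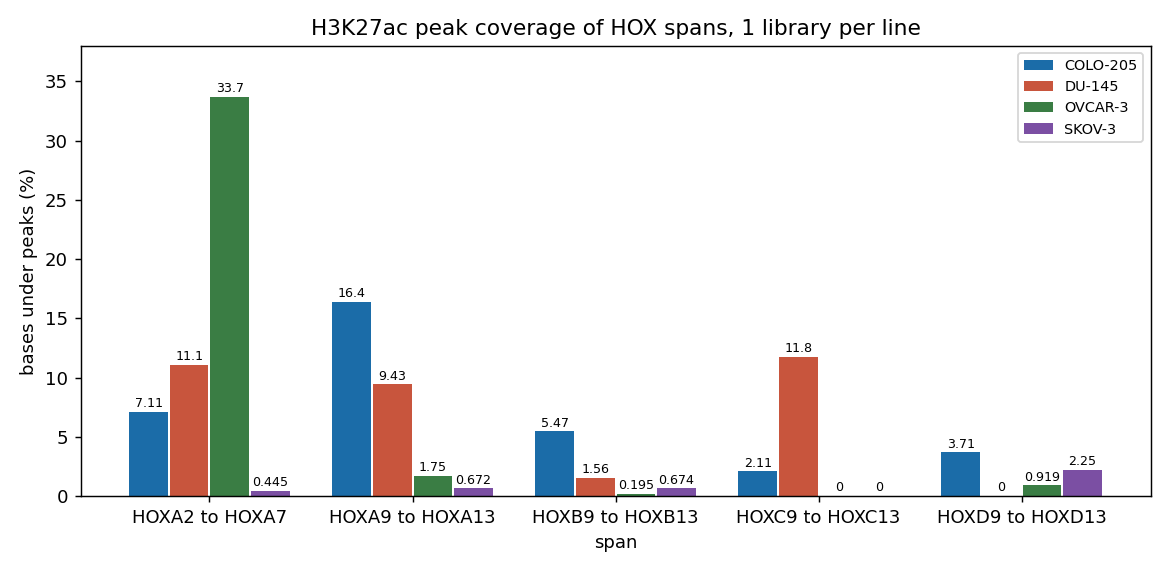
Percentage of bases under H3K27ac peaks (vertical axis) in the anterior HOXA stretch and the posterior stretches of the HOXA, HOXB, HOXC and HOXD clusters, with 1 bar and 1 library per line. OVCAR-3 leads over HOXA2 to HOXA7 with 33.7%, and COLO-205 leads over HOXA9 to HOXA13 with 16.4%.

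The posterior genes of the other clusters were compared next. In COLO-205 the posterior stretch of HOXB held 18 peaks (5.47% of its bases), that of HOXC 3 (2.11%) and that of HOXD 4 (3.71%), all below the 16.4% of the HOXA stretch. DU-145 covered 11.8% of the posterior HOXC stretch with 8 peaks, 1.56% of that of HOXB and none of that of HOXD. Its HOXC9 peak had a fold of 7.14, above the 6.20 at HOXA10. At canonical starts of the 12 posterior HOXB, HOXC and HOXD genes, COLO-205 marked 4 (HOXB9, HOXC10, HOXD10 and HOXD12), DU-145 4 (HOXB9, HOXC9, HOXC10 and HOXC13), OVCAR-3 2 (HOXB13 and HOXD11) and SKOV-3 3 (HOXB9, HOXD9 and HOXD13). Beside the shares of all canonical starts, the counts of COLO-205 (45.3%) and SKOV-3 (29.5%) are near and those of DU-145 (56.9%) and OVCAR-3 (57.5%) lie below. HOXB13, a prostate lineage factor, was not marked in DU-145 and had a fold of 3.67 in OVCAR-3. HOXC11 and HOXC12 were not marked in any line.

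In SKOV-3 the HOX clusters outside chromosome 7 differed from each other, with 8 of 10 HOXB genes, 3 of 9 HOXD genes and 0 of 9 HOXC genes marked at the canonical start, beside 29.5% of all canonical starts, which the HOXD count is near. Of the 8 anterior HOXB genes, on chromosome 17, 7 had a canonical peak, with folds up to 10.9 at HOXB8, and of the posterior HOXD genes HOXD9 had 4.29 and HOXD13 4.74. Of the 10 HOXA genes compared only HOXA10 was marked there, beside the 4.56% of chromosome 7 starts given above.

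**Figure D5:**
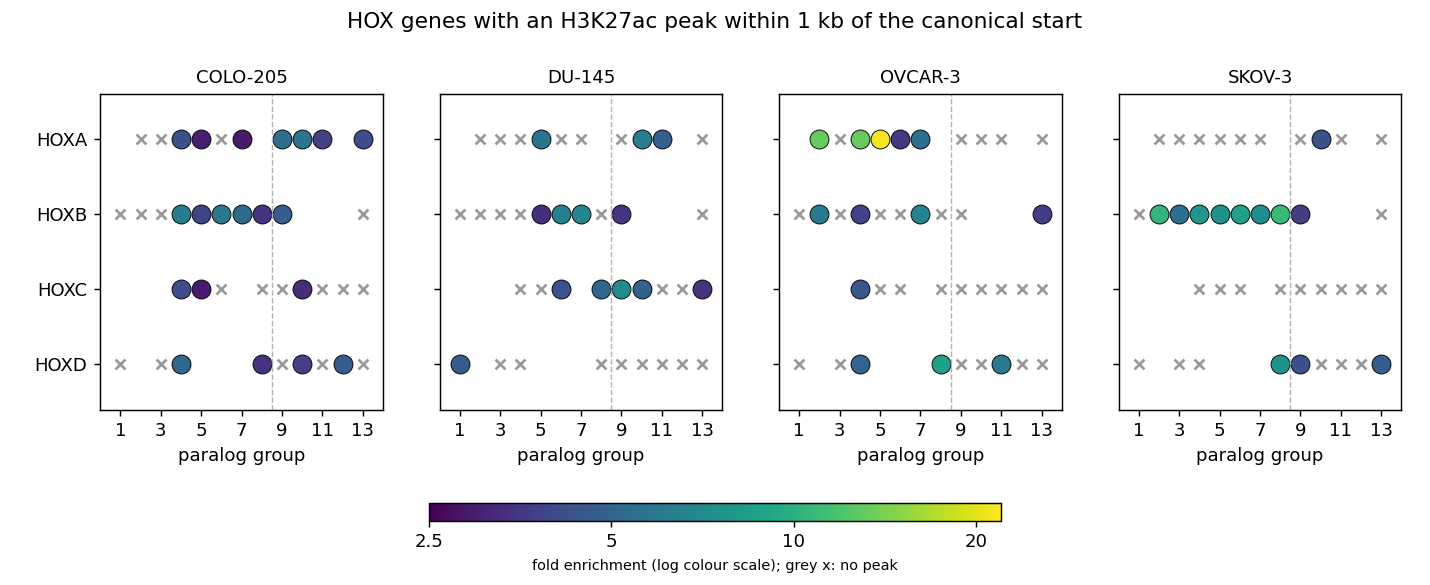
HOX genes by cluster (vertical axis) and paralog group (horizontal axis) in each line, with a filled circle for a peak within 1 kb of the canonical start, coloured by fold enrichment on a log scale, and a cross for none, positions left empty not being compared; the dashed line separates anterior from posterior groups. All 4 posterior HOXA positions are filled in COLO-205 and all 4 are crosses in OVCAR-3, where HOXA5 has the highest fold of 21.1.

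The labelled tissues were checked with marker genes at the canonical start. Of the colon markers, CDX2, VIL1 and HNF4A were marked in COLO-205 (folds of 6.84, 5.66 and 4.68) and in no other line, whereas CDX1 and KRT20 were unmarked. With 5 genes, the count of 3 in COLO-205 is not far from its share of all canonical starts (45.3%), and the other lines had 0. Of the 3 prostate luminal markers compared, DU-145 had a peak at TMPRSS2 (2.98) and none at HOXB13 or KLK3, which was marked in COLO-205 (5.10). TMPRSS2 was marked in COLO-205 as well, with a fold of 9.66. DU-145 thus had 1 of the 3 and COLO-205 had 2, beside 56.9% and 45.3% of all canonical starts. Of the 6 ovarian carcinoma markers OVCAR-3 had 4 (EMX2, PAX8, WT1 and SOX17) and SKOV-3 had 3 (PAX8, SOX17 and ESR1), with ESR1 in SKOV-3 alone. COLO-205 also had 3 of the 6, at lower folds than OVCAR-3 (WT1 5.04, PAX8 4.48 and EMX2 3.57). DU-145 had 0 of the 6. The counts in OVCAR-3 and COLO-205 are near the shares of all canonical starts (57.5% and 45.3%) and so say little of the tissue. That of SKOV-3 lies above its share (29.5%) and that of DU-145 below its share (56.9%). All 4 pan-epithelial markers were marked in 3 lines and only KRT18 was in SKOV-3, which is 1 of 4 beside its share of 29.5%. The blood markers PTPRC, CD3E and SPI1 had no peak in any line, and of the fibroblast markers COL1A1 alone had peaks, in DU-145 (5.32) and OVCAR-3 (3.98). Each library is a bulk sample, in which fewer cells with the mark and less of it per cell cannot be told apart.

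Other genes of the Mullerian duct were marked in OVCAR-3 where the posterior HOXA genes were not. Of 10 such genes 8 had a canonical peak in OVCAR-3, 6 in COLO-205, 4 in SKOV-3 and 3 in DU-145. The shares of all canonical starts were 57.5%, 45.3%, 29.5% and 56.9%, in the same order, and with 10 genes the counts of OVCAR-3, COLO-205 and SKOV-3 are not far from these. The OVCAR-3 folds were 34.9 at EMX2, which HOXA10 is known to repress in the uterus, 31.3 at PAX8, 20.0 at WT1, 17.0 at SOX17 and 15.5 at WNT5A, against 4.60 at its only posterior HOXA peak. The other 3 marked genes had lower folds, of 5.58 at LHX1, 3.81 at WNT4 and 2.91 at WNT9B. PAX8 and SOX17, transcription factors of the Mullerian epithelium, had folds of 8.86 and 6.93 in SKOV-3, and WNT7A, a ligand that keeps posterior HOXA genes active in the uterus, had 8.32. SOX17 was marked in the ovarian lines only, WNT5A in OVCAR-3 only and PAX2 in COLO-205 only (3.26).

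Genes that work with HOXA proteins or act on HOX chromatin were also counted, to be read against the shares of all canonical starts given above. Of 8 PBX, MEIS and PKNOX genes, which encode partners of HOX proteins on DNA, 5 were marked at the canonical start in OVCAR-3, 5 in DU-145 and 4 in each of the other two lines. PBX2, PBX3, MEIS2 and PKNOX1 were marked there in all 4 lines, and PBX4 and MEIS3 in none. MEIS1 (15.7) was marked there in OVCAR-3 only, and PKNOX2 (3.91) in DU-145 only. At other starts MEIS1 also had peaks in SKOV-3 (7.66) and DU-145 (4.25), and PBX4 had one in COLO-205 (4.26). Of the 8 chromatin regulators of HOX genes all 8 were marked in DU-145 and OVCAR-3, and 6 in COLO-205 and SKOV-3 each. They include KMT2A, which keeps HOX genes active, and the Polycomb genes EZH2, SUZ12 and EED, which keep them silent. Of the 9 uterine targets and partners of HOXA proteins 4 were marked in SKOV-3 and 3 in each other line. At the canonical start LIF and NR2F2 were marked in all lines, ESR1 in SKOV-3 only (6.16), and IGFBP1, PGR, BMP2 and IHH in none. PGR had peaks at other starts in COLO-205 (4.09) and DU-145 (3.16).

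The promoters of the members share a feature that the choice of genes did not use, a high CpG content. The windows of 1 kb either side of the canonical starts hold 162 CpGs at HOXA9, 172 at HOXA10, 139 at HOXA11 and 196 at HOXA13, where the median of 19814 windows is 96. These values are percentiles 87.2, 90.5, 77.2 and 95.6. HOXA13, with the most CpGs, was marked in COLO-205 alone, and HOXA10 in every line but OVCAR-3. A relation between CpG content and the mark was not tested. Of 4 short motifs searched on both strands, the CCAAT box (CCAAT, in 87.1% of all windows) occurred 1, 2, 4 and 2 times in HOXA9, HOXA10, HOXA11 and HOXA13. The core bound by posterior HOX proteins (TTTATNG, in 47.9% of all windows) occurred 2 times at HOXA9 and 1 time at HOXA10. A GC-rich CTCF core (AGGGGGCGC, 8.52%) and a core of HOX with PBX (TGATTTAT, 6.20%) occurred in none of the 4. A match is a description of the letters and not a bound site.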

How the data were processed

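H3K27ac ChIP-seq peaks of 4 lines with 1 library each were analysed. According to the methods and the labels, the authors mapped reads to hg19 with Bowtie2 2.1.0 and called narrow peaks in each library, against input, with MACS2 2.1.0.20150603 (q-value under 0.001). The deposited lists give for each peak the enrichment ratio at its summit over the surrounding background, its −log10 p, its −log10 q, the offset of the summit and a score, which is the −log10 q times 10 without decimals. The authors' caller made these values from 1 library at a time. The methods state that peaks under 350 bp apart were merged, but the deposited lists hold 16181 (OVCAR-3), 14087 (DU-145), 8777 (COLO-205) and 2070 (SKOV-3) such neighbours, so the peaks were used unmerged and merging was an alternative.

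A gene was counted as marked when a peak overlapped, by at least 1 bp, the 1 kb either side of a transcript start in GENCODE 44 lifted to GRCh37, the build of the lists. Summit pileup and background were solved from the fold and −log10 p within 0.001, which succeeded for 100% of the peaks, and library tags from 2.7e+09 genome positions times the lowest background, divided by the width of the narrowest peak. The lists hold 85576 (COLO-205), 76093 (OVCAR-3), 75468 (DU-145) and 14001 (SKOV-3) peaks with median pileups of 24, 27, 27 and 30 tags, in the same order, and these pileups set the precision. Intervals are exact 95% Poisson or Clopper-Pearson intervals and cover counting error only, and lines were compared as descriptions.

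The members and gene lists were chosen with earlier results of these data known, and the canonical-start setting after the values were seen. The 4 members are named in every line. List genes are counted, and those marked in 1 line only or in the ovarian lines only are named, as are the posterior HOX genes, HOXA2 to HOXA7 and HOX genes with the pattern of a member. Markers and other list genes with the highest folds were named after their values were seen. Alternatives were other distances (500 bp, 2 kb), the 5′ end of each gene, coding transcripts, summits in the window, −log10 q of at least 5 or 10, merging, 14001 peaks in every list, other limits of the stretch and other scalings of pileup. Genomic sequence is GRCh37 and mature microRNAs are from RefSeq (GRCh38.p14). Scripts ran under Python 3.11.15 with pandas 2.3.3, scipy 1.17.1, numpy 2.4.6 and matplotlib 3.10.9. Expression, mutations and other lines were not analysed here. Some genes of the lists are not reported here and were left out of the counts.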

Additional observations from a re-analysis of the deposited data

How the results depend on the processing

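Of the 168 values computed for the main results under alternatives, 125 stayed within 1.5 times or within counting error of the value reported; the others follow. The absence of replicates, the small number of SKOV-3 peaks on chromosome 7 and peak calling per library limit the comparisons, and a missing peak shows only that none passed the authors' threshold. Except where fewer starts or peaks enter by construction, the cause of a change was not tested. No paired analysis was possible because each line has 1 library and the labels give no replicate numbers.

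With the canonical start alone, a setting chosen after seeing the data, OVCAR-3 had 0 of the 4 genes, and COLO-205 had 4 marked starts, DU-145 2, SKOV-3 1 and OVCAR-3 0. With the 5′ end of each gene only, OVCAR-3 and SKOV-3 had 0 genes each, and COLO-205 had 4 marked starts, DU-145 2, SKOV-3 0 and OVCAR-3 0. With coding transcripts only, OVCAR-3 had 0 genes and the starts numbered 8, 3, 1 and 0, in the same order. Within 500 bp of a start SKOV-3 had 0 genes and 0 starts, and within 2 kb it had 2 genes. With a −log10 q of at least 10 SKOV-3 had 0 genes, 0 starts, 0 peaks and 0 bases of the stretch, COLO-205 had 8 peaks there and 3 genes, and 6380 of all genes were marked in COLO-205. With the 14001 strongest peaks of every list, OVCAR-3 had 0 genes, 0 starts, 0 peaks and 0 bases, and COLO-205 had 2 genes, 8 starts, 4 peaks and 3158 bases, while DU-145 also had 2 genes. Genes marked over the whole annotation then numbered 7645 in OVCAR-3, 7614 in DU-145 and 4399 in COLO-205. Merging left 8 COLO-205 peaks in the stretch. From HOXA10 to HOXA13 only, COLO-205 had 8 peaks over 3900 bases and OVCAR-3 had 0 peaks and 0 bases. With 5 kb added on each side OVCAR-3 had 2 peaks over 1213 bases. Values of single genes could be compared only where the gene kept a peak. Lost calls, such as that of HOXA11 in DU-145 within 500 bp of a start, are not counted. Of the 88 values compared, 84 stayed within counting error. Among these, relative to the median promoter pileup, the log2 ratio of COLO-205 over DU-145 turned from -0.36 to 0.03 at HOXA10 and from -0.20 to 0.18 at HOXA11. These ratios use the strongest peak at any start, which at HOXA11 in COLO-205 is a peak of 33 tags and not the canonical peak of 41. Counted for HOXA9 they compare peaks at other sites, and those ratios are not given. The highest fold at HOXA9 in DU-145 was 4.38 within 500 bp and with the summit in the window and the log2 ratio of pileup at HOXA10 of DU-145 over SKOV-3 was 1.55 in tags.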

Other observations

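The neighbourhood of the HOXA cluster was also counted. In the 1 Mb after HOXA13, DU-145 had 19 peaks, COLO-205 6, OVCAR-3 4 and SKOV-3 0. COLO-205 covered 0.181% of this flank, against 16.4% of the stretch from HOXA9 to HOXA13, and OVCAR-3 covered 0.267%, against 1.75% of the stretch.

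Among the antisense non-coding RNAs of the anterior HOXA genes, HOXA-AS2 was marked at its canonical start in OVCAR-3 alone (fold 15.2), and HOXA-AS3 in OVCAR-3 (13.2) and COLO-205 (4.30). These RNAs overlap or neighbour coding HOXA genes, and peaks have no strand, so their marks cannot be told apart from those of the genes.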
